A study of Mus musculus with 10 samples.

Results

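The erythropoietin receptor gene Epor, its kinase gene Jak2, the signal transducer genes Stat5a and Stat5b, and 6 genes that this signal is known to switch on (Cish, Socs2, Socs3, Pim1, Bcl2l1 and Erfe) were followed through 10 RNA-seq libraries of sorted mouse cells. The 10 genes were chosen by name as members of 1 signalling pathway, out of 17603 genes with a value. The libraries came from wild-type female mice of the C3H/HeN strain that carried tumors of SCC7, a mouse squamous cell carcinoma line, and the labels give the disease as HNSCC. The sorted cells are labelled EPC, an abbreviation that the labels do not spell out and that is used here as given. They formed 3 groups by tissue and by CD45, a phosphatase on the surface of white blood cells. There were 4 libraries of tumor CD45+ cells, 3 of splenic CD45+ cells and 3 of splenic CD45- cells. Every group came from tumor-bearing mice, and cells of tumor-free mice were not analysed here. The labels do not tell whether each replicate was a separate mouse, so the p-values cover the spread among these libraries alone, which may be technical.

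Erythropoietin, a hormone of the kidney, binds its receptor on red cell precursors, and the kinase JAK2 attached to the receptor's tail then phosphorylates the receptor and the transcription factors STAT5A and STAT5B. STAT5 enters the nucleus and switches on survival genes, genes of feedback inhibitors of the SOCS family, and the hormone gene Erfe, whose product erythroferrone lowers hepcidin in the liver and so frees iron for red cell production. The mouse spleen makes red cells under stress, and several other cytokine receptors of white blood cells also use JAK2, STAT5 and the same SOCS inhibitors. Epo, the gene of the hormone itself, had no value among the genes summed here and so was not analysed.

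Promoter sequences are shown for the receptor gene Epor, whose level differed in all 3 comparisons, and for Cish and Socs3, the members with a STAT5 core motif in their window, with the letters that matter in capitals. They are RefSeq sequences of build GRCm38.p6. Windows of 250 bases before to 50 after the annotated start were on hand for 9 of the 10 genes, 14 windows in all. They were searched for TTCNNNGAA, the core motif of STAT5 sites, which reads the same on both strands, and for AGATAA, a form of the motif of the erythroid factor GATA1, on both strands. No match overlapped another. Among 32851 mouse promoter windows of the same length 8.30% held TTCNNNGAA, 0.457% held it at least 2 times, and 11.2% held AGATAA. Of the 9 genes, Cish and Socs3 held TTCNNNGAA, and Epor and Bcl2l1 held AGATAA. A match describes the letters and is not evidence of binding. The stretch before the Epor start is chr9:21963577-21963826 on the minus strand, outside the gene, with TTATCT, the reverse complement of AGATAA, 54 bases before the start. The Cish stretch is chr9:107296656-107296681 on the plus strand, with TTCNNNGAA at bases 1 and 12 counted from the annotated start, inside the first exon of a longer annotated Cish transcript. The Socs3 stretch is chr11:117969502-117969530 on the minus strand, with TTCNNNGAA 154 bases before the start, inside an intron of a longer annotated Socs3 transcript.
Epor: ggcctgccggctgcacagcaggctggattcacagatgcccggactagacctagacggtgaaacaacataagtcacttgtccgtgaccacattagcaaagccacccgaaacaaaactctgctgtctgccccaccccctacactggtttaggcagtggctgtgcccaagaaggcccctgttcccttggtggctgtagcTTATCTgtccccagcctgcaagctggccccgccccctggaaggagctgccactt
Cish: gttTTCCTGGAAagTTCTTGGAAatc
Socs3: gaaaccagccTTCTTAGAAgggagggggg

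Levels are given in FPKM, fragments per kilobase of transcript scaled to library size, a unit inferred from the values. The steps between low values put 16.9 to 20.8 fragments behind 1 FPKM of a transcript of 1 kilobase. Haemoglobin genes took 1.80% to 10.4% of the summed FPKM in tumor CD45+ libraries, 29.3% to 52.1% in splenic CD45+ libraries and 62.5% to 63.5% in splenic CD45- libraries. Against marker lists of other cell types, the tumor CD45+ libraries were led by genes of monocytes and macrophages, whose 12 markers summed to 22100 to 41800 FPKM, against 1460 to 4120 in splenic CD45+ and 56.7 to 105 in splenic CD45- libraries. The 10 erythroid markers summed to 1.30 to 11.4 FPKM in tumor CD45+ libraries, 5160 to 5320 in splenic CD45+ and 9400 to 9860 in splenic CD45- libraries. In the tumor 7 of the 10 erythroid markers were below 1 FPKM in every library and none reached 1 FPKM in every library, while none was at 0 in all 4. Splenic CD45+ libraries also held 12 granulocyte markers at a sum of 23200 to 77800 FPKM, against 39.4 to 1750 in tumor CD45+ and 391 to 525 in splenic CD45- libraries. Within the tumor group replicate 1 was set apart by 10.4% haemoglobin, against 1.80% to 1.87% in replicates 2 to 4. Splenic CD45+ replicate 2 stood apart by 7 B cell markers at a sum of 141 FPKM, against 1270 and 1160 in replicates 1 and 3.

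In tumor CD45+ cells Epor and Erfe were below 1 FPKM and Socs3 stood at its highest. In splenic CD45+ cells Epor was lower, and Stat5a, Stat5b, Cish, Socs2 and Socs3 were higher, than in splenic CD45- cells. All 10 genes passed the filter of 1 FPKM in at least 3 of the libraries compared in each of the 3 comparisons. Epor and Erfe were below 1 FPKM in every tumor library and passed through the splenic libraries alone, so with the tumor they could be called lower only.

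Tumor CD45+ set against splenic CD45+ libraries, at the same gate in another tissue, called 1 of the 10 genes higher and 6 lower. Of the 11463 genes tested there, 37.7% were called higher and 26.0% lower, 63.8% in all (adjusted p below 0.05 by limma). The median log2 change of the 10 genes was -0.90, against 0.20 for all genes tested. Without splenic CD45+ replicate 2 the counts were 1 higher and 7 lower, and without tumor CD45+ replicate 1 they were 1 higher and 6 lower. Splenic CD45+ set against splenic CD45- libraries, in the same organ across the gate, called 5 of the 10 genes higher and 2 lower, where 50.5% of 9728 genes tested were called higher and 5.02% lower, 55.5% in all. Their median log2 change was 1.27, against 0.67 for all genes tested. Without splenic CD45+ replicate 2 the counts were again 5 higher and 2 lower, without any 1 splenic CD45- replicate they were 4 higher and 1 lower, and after median-ratio scaling they were 2 higher and 4 lower. Tumor CD45+ set against splenic CD45- libraries, which differ in tissue and gate together, called 4 genes higher and 5 lower. There 67.5% of 11208 genes tested were called higher and 22.5% lower, 90.0% in all, so that a call was the usual case for any gene. The median log2 change of the 10 genes was -0.64, against 1.06 for all genes tested, and without tumor CD45+ replicate 1 the counts were again 4 higher and 5 lower. The comparisons share libraries, so their values stand side by side and not as independent results.

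The scale between libraries moved these medians. Over all genes tested the median log2 change for splenic CD45+ against splenic CD45- libraries was 0.67 as deposited, 0.01 with trimmed-mean factors and -0.25 with median-ratio factors, and the split of calls was 4912 higher and 488 lower as deposited, 2924 and 2100 with the trimmed-mean factors, and 2407 and 3284 with the median-ratio factors. For tumor CD45+ against splenic CD45- libraries the median was 1.06 as deposited, 0.30 after trimmed-mean and 0.18 after median-ratio scaling, and the split was 7563 higher and 2522 lower as deposited, 5666 and 4371, and 5426 and 4638. For tumor CD45+ against splenic CD45+ libraries the median was 0.20 as deposited and 0.00 and 0.13 under the same scalings. Leaving out haemoglobin genes gave -0.20 there, with 2986 genes higher and 4271 lower against 4327 and 2986 as deposited. Trimmed-mean scaling there called 3760 genes higher and 3721 lower.

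**Figure D1:**
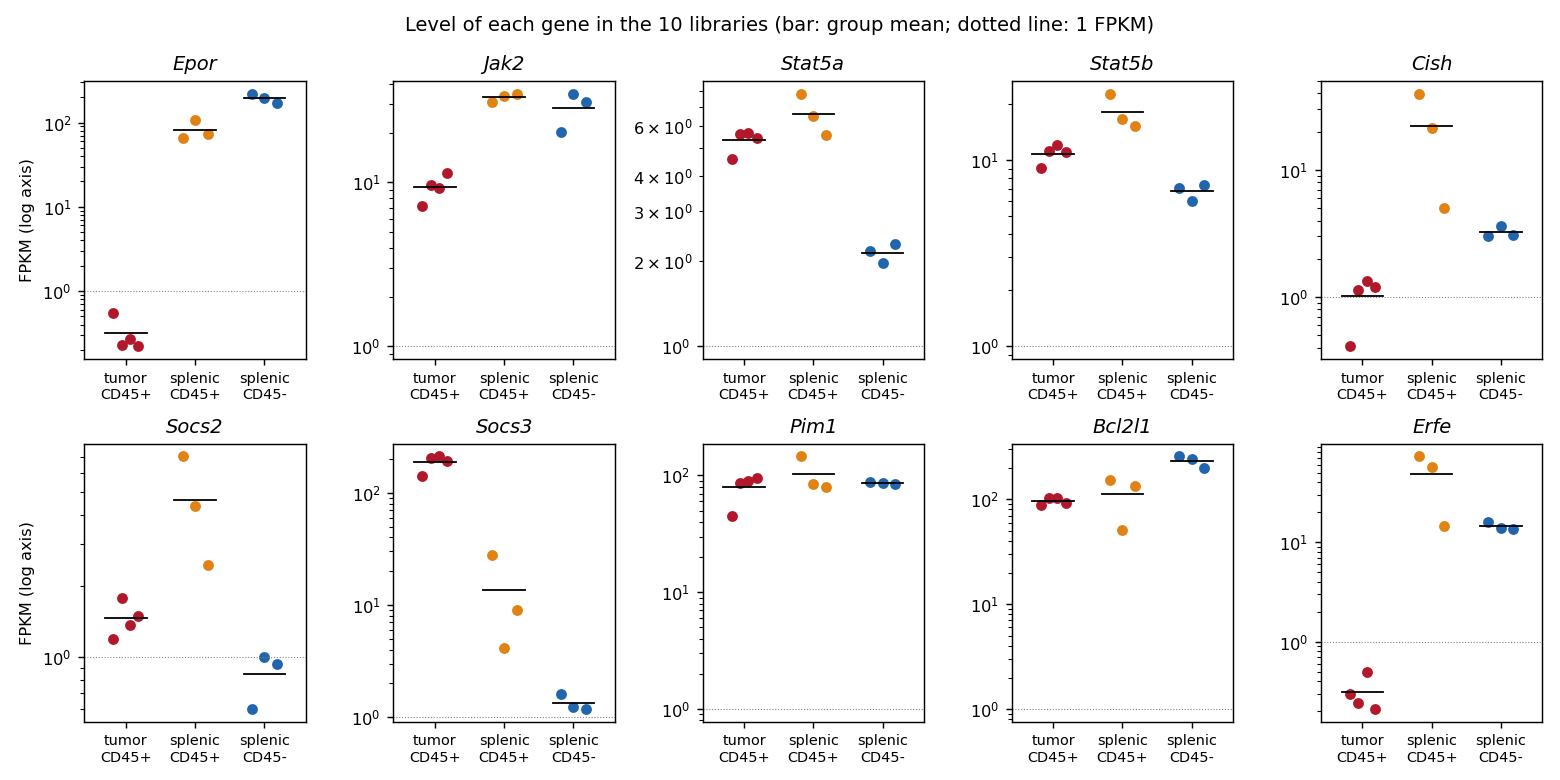
Level of each of the 10 genes in every library, in FPKM on a log axis, with 1 point per library, a bar at the group mean and a dotted line at 1 FPKM. Epor and Erfe lie below 1 FPKM in all 4 tumor CD45+ libraries, Socs3 lies between 142 and 211 FPKM there, and the splenic CD45+ libraries spread most in Cish, Socs2, Socs3 and Erfe.

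Epor encodes the receptor itself. Its level was 0.55, 0.23, 0.27 and 0.22 FPKM in tumor CD45+ replicates 1 to 4, against 64.9, 107 and 73.7 FPKM in splenic CD45+ replicates 1 to 3 and 220, 195 and 173 FPKM in splenic CD45- replicates 1 to 3. The 3 groups did not overlap, and the tumor values rest on 7 to 17 fragments of the leading transcript model per library. Epor fell in tumor CD45+ against splenic CD45+ libraries by 5.95 on the log2 scale (SE 0.21, adjusted p = 4.43e-07 by limma), with means of 0.318 ± 0.156 FPKM (SD, n = 4) in tumor CD45+ and 82.0 ± 22.4 (n = 3) in splenic CD45+ libraries, which were 258-fold apart. Against splenic CD45- libraries it fell by 7.23 (SE 0.12, adjusted p = 9.61e-11 by limma), 618-fold between the means. In splenic CD45+ against splenic CD45- libraries it fell by 1.28 (SE 0.23, adjusted p = 0.00361 by limma), 2.39-fold below a mean of 196 ± 23.7 FPKM, and by 2.33 after median-ratio scaling. In bulk samples fewer cells of a type and less RNA per cell cannot be told apart. The erythroid markers fell with Epor in both tumor comparisons, 10 of 10 each time, and 6 of 10 fell in the splenic comparison. Of the 10, 7 passed the filter through the spleen alone in each tumor comparison and could be called lower only. Their part in the result was not tested. Epor (gene 13857) spans chr9:21958897-21963576.

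Among 17 cytokine receptor genes compared per length, Epor took rank 12 or 13 in tumor CD45+ libraries, rank 1 in splenic CD45+ replicates 2 and 3 and rank 4 in replicate 1, and rank 1 in every splenic CD45- library. Its share of the summed FPKM of these receptors was 0.0759% to 0.239% in tumor CD45+ libraries, 14.2%, 57.8% and 23.1% in splenic CD45+ replicates 1 to 3, and 95.4% to 96.6% in splenic CD45- libraries. The leading receptor of the tumor was Il2rg, the shared chain of several interleukin receptors, at 84.3 to 127 FPKM. Il2rg also led in splenic CD45+ replicate 1, at 120 FPKM.

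**Figure D2:**
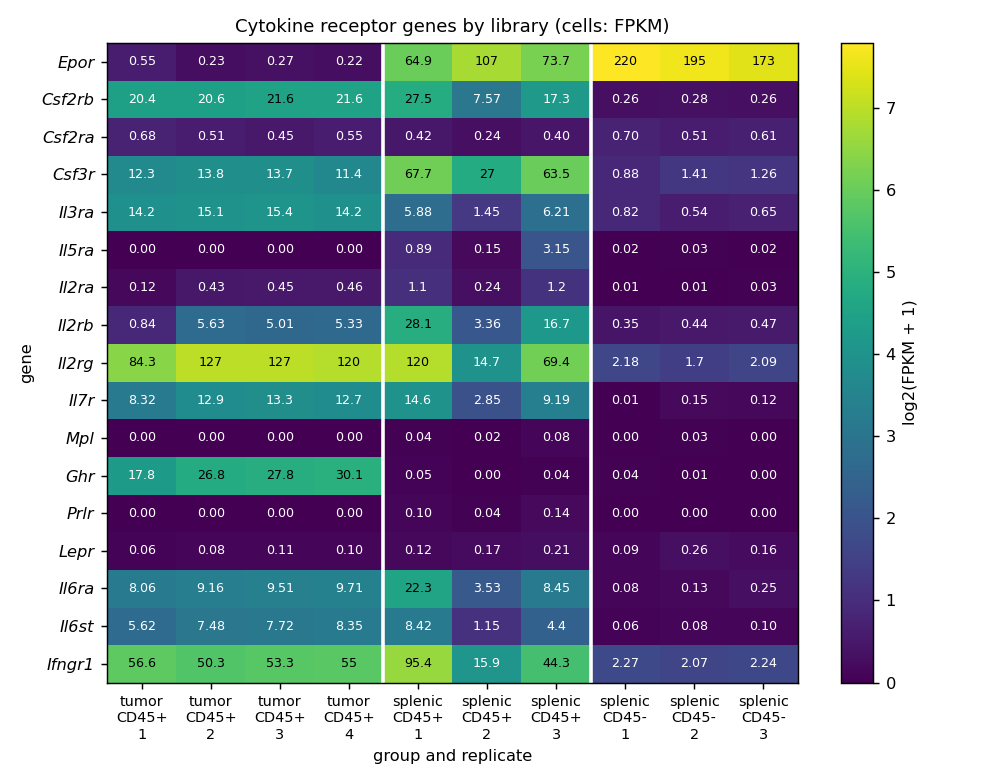
FPKM of 17 cytokine receptor genes (rows) in the 10 libraries (columns), coloured by log2(FPKM + 1), with white lines between the groups. Epor is the brightest row of the splenic CD45- libraries, at 173 to 220 FPKM, and among the darkest of the tumor libraries, where Il2rg leads.

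Jak2 encodes the kinase bound to the receptor, which the receptors of growth hormone, interferon-γ and interleukin-3 also use. Its level was 7.15, 9.70, 9.18 and 11.4 FPKM in tumor CD45+ replicates 1 to 4, against 30.9, 33.5 and 34.4 FPKM in splenic CD45+ replicates and 20.2, 34.7 and 30.8 FPKM in splenic CD45- replicates. Every tumor library lay below every splenic one, and the splenic groups overlapped. Jak2 fell in tumor CD45+ against splenic CD45+ libraries by 1.73 on the log2 scale (SE 0.17, adjusted p = 9.15e-05 by limma), 3.52-fold between means of 9.36 ± 1.76 (n = 4) and 32.9 ± 1.79 FPKM (n = 3). Against splenic CD45- libraries it fell by 1.49 (SE 0.20, adjusted p = 7.51e-05 by limma). Between splenic CD45+ and splenic CD45- libraries the log2 difference was 0.23 (SE 0.24, adjusted p = 0.438 by limma). Its sign turned with the scale, to -0.50 after trimmed-mean scaling and -0.02 with haemoglobin left out, neither called. After median-ratio scaling Jak2 was at -0.80 and called lower. The tumor libraries held the kinase at 7.15 FPKM or more while the receptor was below 1 FPKM.

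Stat5a and Stat5b encode the transcription factors that JAK2 phosphorylates, and are neighbours on chromosome 11, Stat5a at chr11:100859351-100885169 and Stat5b at chr11:100780731-100859004. Stat5a was at 4.60, 5.61, 5.67 and 5.45 FPKM in tumor CD45+ replicates 1 to 4, against 7.80, 6.49 and 5.57 FPKM in splenic CD45+ replicates and 2.17, 1.97 and 2.29 FPKM in splenic CD45- replicates. Stat5b was at 9.05, 11.2, 12.0 and 11.0 FPKM in the tumor CD45+ libraries, against 22.7, 16.5 and 15.1 FPKM in splenic CD45+ and 7.09, 6.02 and 7.35 FPKM in splenic CD45- libraries. As deposited, every CD45+ library, tumor or splenic, lay above every splenic CD45- library for both genes. Epor, in contrast, was highest in splenic CD45- cells. Against splenic CD45- libraries, 50.5% of all genes tested were called higher in splenic CD45+ and 67.5% in tumor CD45+ libraries. The share of all genes without overlap was not computed.

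Both genes rose in splenic CD45+ against splenic CD45- libraries by 1.27 on the log2 scale, Stat5a at an adjusted p of 0.00229 (SE 0.20) and Stat5b at 0.00297 (SE 0.22), by limma. After median-ratio scaling neither call held, with log2 changes of 0.45 for Stat5a and 0.31 for Stat5b. Over 15 alternatives the adjusted p by limma ran from 5.57e-05 to 0.0544 for Stat5a and from 0.00014 to 0.193 for Stat5b. In tumor CD45+ against splenic CD45+ libraries Stat5b fell by 0.68 (SE 0.18, adjusted p = 0.0124 by limma), which was not called, at -0.44, once libraries were scaled to a common sum. Stat5a differed there by -0.26 (SE 0.16, adjusted p = 0.183 by limma), and was called lower at -0.44 after trimmed-mean scaling, -0.31 after median-ratio scaling and -0.65 with haemoglobin left out. In tumor CD45+ against splenic CD45- libraries Stat5a rose by 1.01 (SE 0.09, adjusted p = 4.10e-06 by limma), and by 0.14 with no call after median-ratio scaling. Stat5b rose there by 0.59 as deposited (SE 0.11, adjusted p = 0.000711 by limma). But its sign turned to -0.30 after trimmed-mean and -0.43 after median-ratio scaling, and it was called lower in both. With haemoglobin left out it was -0.06 and not called.

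The ratio of Stat5b to Stat5a within a library, which no scaling changes, was 1.97 to 2.11 in tumor CD45+, 2.55 to 2.91 in splenic CD45+ and 3.06 to 3.27 in splenic CD45- libraries, with no overlap between the groups. The 2 genes share sequence, with 14.7% of the 50-base stretches of the Stat5a transcript found in Stat5b, so the counting may have moved fragments between them. STAT3 is the transducer that interleukin-6 type receptors use. The ratio of Stat3 to the sum of Stat5a and Stat5b was 2.25 to 2.46 in tumor CD45+ libraries, 1.12, 0.369 and 0.984 in splenic CD45+ replicates 1 to 3, and 0.140 to 0.154 in splenic CD45- libraries. The groups did not overlap, and Stat3 exceeded both STAT5 genes together in every tumor library and in splenic CD45+ replicate 1.

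**Figure D3:**
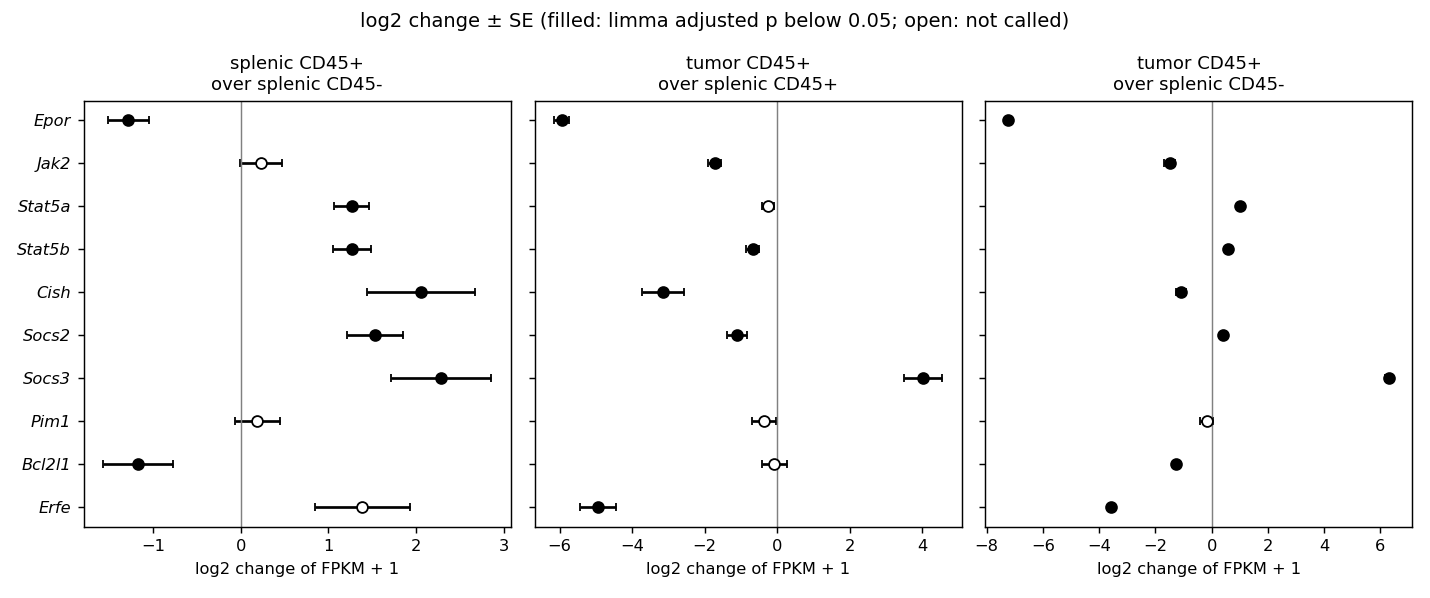
Log2 change of FPKM + 1 with its SE for the 10 genes in the 3 comparisons, filled where limma's adjusted p was below 0.05 and open otherwise. Epor lies left of 0 in each panel, at -1.28, -5.95 and -7.23, and Socs3 lies right of 0 in each, at 2.29, 4.03 and 6.31.

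Cish encodes CIS, an inhibitor that binds phosphorylated cytokine receptors and competes with STAT5, and is a textbook STAT5 target. Its level was 0.41, 1.14, 1.35 and 1.20 FPKM in tumor CD45+ replicates 1 to 4, against 39.8, 21.2 and 5.04 FPKM in splenic CD45+ replicates 1 to 3 and 3.05, 3.61 and 3.08 FPKM in splenic CD45- replicates. The groups did not overlap, but the splenic CD45+ libraries spread widely, with replicate 3 close above the splenic CD45- libraries. Cish fell in tumor CD45+ against splenic CD45+ libraries by 3.15 on the log2 scale (SE 0.58, adjusted p = 0.00206 by limma), 21.5-fold between means of 1.03 ± 0.419 (n = 4) and 22.0 ± 17.4 FPKM (n = 3). Against splenic CD45- libraries it fell by 1.09 (SE 0.17, adjusted p = 0.000219 by limma), and the tumor values rest on 21 to 59 fragments of its leading model. In 1 fit over all libraries this call was lost, at an adjusted p of 0.0681 by limma, while over its 16 alternatives the adjusted p ran from 1.05e-06 to that value. In splenic CD45+ against splenic CD45- libraries Cish rose by 2.06 (SE 0.62, adjusted p = 0.0251 by limma), and 7 of 15 alternatives ended that call, with adjusted p-values by limma from 0.00453 to 0.113 over all 15. Without splenic CD45+ replicate 1 its log2 change was 1.45 and not called, and without any 1 of the splenic CD45- replicates it was 2.02 to 2.12 and not called.

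Socs2 encodes an inhibitor of growth hormone and STAT5 signals. It was at 1.19, 1.78, 1.36 and 1.49 FPKM in tumor CD45+ replicates 1 to 4, against 7.06, 4.33 and 2.44 FPKM in splenic CD45+ replicates and 0.60, 1.00 and 0.93 FPKM in splenic CD45- replicates. The groups did not overlap, and the splenic CD45+ replicates stood in the same order as for Cish. Socs2 rose in splenic CD45+ against splenic CD45- libraries by 1.53 on the log2 scale (SE 0.32, adjusted p = 0.00600 by limma), and this call held in all 15 alternatives, with log2 changes of 0.90 to 2.22. It fell in tumor CD45+ against splenic CD45+ libraries by 1.11 (SE 0.27, adjusted p = 0.00774 by limma). Against splenic CD45- libraries Socs2 in the tumor rose by 0.41 as deposited (SE 0.11, adjusted p = 0.00576 by limma), with its sign turned to -0.10 after trimmed-mean and -0.19 after median-ratio scaling, and with no call in 1 fit over all libraries or with haemoglobin left out, at 0.03.

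Socs3 encodes an inhibitor that binds JAK kinases and the receptors of interleukin-6 and granulocyte colony-stimulating factor, and it is induced by STAT3 as well as by STAT5. Its level was 142, 203, 211 and 191 FPKM in tumor CD45+ replicates 1 to 4, against 27.9, 4.11 and 9.02 FPKM in splenic CD45+ replicates and 1.61, 1.24 and 1.18 FPKM in splenic CD45- replicates. The groups did not overlap, and every tumor library was above every splenic one. Socs3 rose in tumor CD45+ against splenic CD45+ libraries by 4.03 on the log2 scale (SE 0.52, adjusted p = 0.000328 by limma), 13.7-fold between means of 187 ± 30.9 (n = 4) and 13.7 ± 12.5 FPKM (n = 3). Against splenic CD45- libraries, with a mean of 1.34 ± 0.233 FPKM, it rose by 6.31 (SE 0.14, adjusted p = 4.65e-10 by limma), 139-fold between the means. In splenic CD45+ against splenic CD45- libraries it rose by 2.29 (SE 0.57, adjusted p = 0.0112 by limma), 10.2-fold between the means. All 3 calls held in every alternative. The monocyte and macrophage markers moved with Socs3, with 11 of 12 higher and 1 lower in tumor CD45+ against splenic CD45+ libraries. Across the splenic gate 9 of 11 tested were higher, and 2 of the 11 passed the filter through 1 group alone and could be called in 1 direction only. The part of these markers in the result was not tested.

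Against splenic CD45+ libraries Socs3 was higher in the tumor while Cish and Socs2 were lower. Socs3 made up 98.9%, 98.6%, 98.7% and 98.6% of the summed FPKM of the 3 inhibitors in tumor CD45+ replicates 1 to 4, against 37.3%, 13.9% and 54.7% in splenic CD45+ replicates and 30.6%, 21.2% and 22.7% in splenic CD45- replicates. The shares of the splenic groups overlapped, and the tumor's lay above both. Cish was the most abundant of the 3 in splenic CD45+ replicates 1 and 2, at 53.3% and 71.5%, and in every splenic CD45- library, at 58.0% to 61.7%. The sum of the 3 inhibitors was 144 to 214 FPKM in tumor CD45+ libraries, 16.5 to 74.8 in splenic CD45+ and 5.19 to 5.85 in splenic CD45- libraries. Among all 8 genes of the family (Cish and Socs1 to Socs7) Socs3 held 83.5% to 84.9% in the tumor, and the leading gene was Socs3 in every tumor library, Cish in splenic CD45+ replicates 1 and 2, and Socs4 in splenic CD45+ replicate 3 and every splenic CD45- library.

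**Figure D4:**
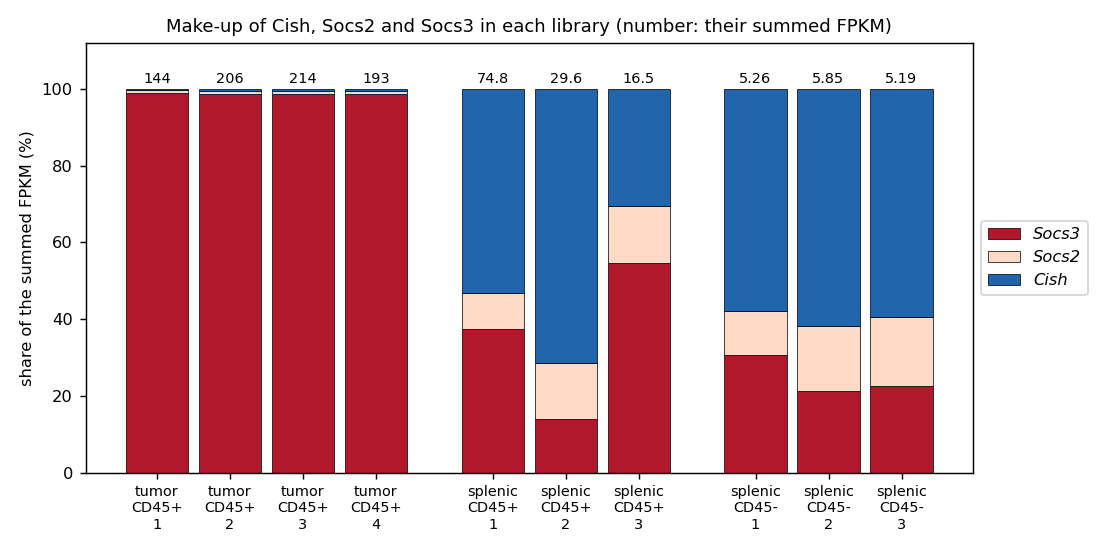
Make-up of the summed FPKM of Socs3, Socs2 and Cish in each library, as a stacked share in percent, with the sum in FPKM above each bar. Socs3 fills 98.6% to 98.9% of the tumor CD45+ bars, while Cish holds most of the splenic CD45- bars and of splenic CD45+ replicates 1 and 2.

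Pim1 encodes a serine/threonine kinase that promotes survival and is induced by STAT5 and STAT3. It was at 44.9, 86.9, 90.2 and 94.7 FPKM in tumor CD45+ replicates 1 to 4, against 146, 83.8 and 79.0 FPKM in splenic CD45+ replicates and 88.5, 86.0 and 84.6 FPKM in splenic CD45- replicates. Every group overlapped the others, with tumor CD45+ replicate 1 lowest and splenic CD45+ replicate 1 highest. No comparison called Pim1 as deposited, with log2 differences of -0.37 (SE 0.33, adjusted p = 0.342) for tumor against splenic CD45+, 0.19 (SE 0.26, adjusted p = 0.559) across the splenic gate and -0.18 (SE 0.24, adjusted p = 0.482) for tumor CD45+ against splenic CD45- libraries, by limma. The second turned to -0.56 after trimmed-mean scaling and -0.08 without splenic CD45+ replicate 1, neither called, and to -0.86 and called lower after median-ratio scaling. The last was 0.46 after scaling to a common sum and 0.07 without tumor CD45+ replicate 1, and was called lower after trimmed-mean scaling, at -1.16, after median-ratio scaling, at -1.31, and with haemoglobin left out, at -0.90.

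Bcl2l1 encodes BCL-XL, which protects late red cell precursors from cell death. Its level was 88.8, 103, 103 and 92.0 FPKM in tumor CD45+ replicates 1 to 4, against 152, 51.5 and 135 FPKM in splenic CD45+ replicates and 257, 241 and 197 FPKM in splenic CD45- replicates. The splenic CD45- libraries lay above all others, and the tumor lay within the splenic CD45+ range, between replicate 2 and the other 2. Bcl2l1 fell in tumor CD45+ against splenic CD45- libraries by 1.25 on the log2 scale (SE 0.11, adjusted p = 4.27e-06 by limma), 2.40-fold between means of 96.6 ± 7.30 (n = 4) and 232 ± 30.7 FPKM (n = 3). In splenic CD45+ against splenic CD45- libraries it fell by 1.17 (SE 0.40, adjusted p = 0.0391 by limma), and by 0.68, still called, without splenic CD45+ replicate 2. That call was lost in 7 of 15 alternatives, with adjusted p-values by limma from 0.00337 to 0.124 over all 15, among them each alternative that left out 1 splenic CD45- replicate. Between tumor CD45+ and splenic CD45+ libraries the log2 difference was -0.08 (SE 0.35, adjusted p = 0.858 by limma). Without splenic CD45+ replicate 2 it was -0.56 and called lower, while it was 0.21 without splenic CD45+ replicate 1, 0.12 without replicate 3, 0.18 after scaling to a common sum and 0.01 on the highest model per gene, none of them called.

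Set against Mcl1, a related survival gene of many white blood cells, Bcl2l1 changed place. The ratio of Bcl2l1 to Mcl1 was 0.292 to 0.320 in tumor CD45+ libraries, 0.864, 0.485 and 0.786 in splenic CD45+ replicates 1 to 3, and 3.00 to 4.07 in splenic CD45- libraries. The 3 groups did not overlap, and Bcl2l1 exceeded Mcl1 in the splenic CD45- libraries only.

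Erfe encodes erythroferrone, the hormone by which red cell precursors act on hepcidin. Its level was 0.30, 0.24, 0.49 and 0.21 FPKM in tumor CD45+ replicates 1 to 4, against 72.8, 56.2 and 14.5 FPKM in splenic CD45+ replicates 1 to 3 and 15.8, 14.0 and 13.5 FPKM in splenic CD45- replicates. The tumor libraries lay below all others, 2 splenic CD45+ libraries lay above every splenic CD45- library, and splenic CD45+ replicate 3 lay inside the splenic CD45- range. Erfe fell by 4.95 on the log2 scale in tumor CD45+ against splenic CD45+ libraries (SE 0.49, adjusted p = 8.04e-05 by limma), 154-fold between means of 0.310 ± 0.126 (n = 4) and 47.8 ± 30.0 FPKM (n = 3). Against splenic CD45- libraries, with a mean of 14.4 ± 1.19 FPKM, it fell by 3.56 (SE 0.10, adjusted p = 1.38e-09 by limma), 46.6-fold. The tumor values rest on 11 to 23 fragments of the leading model per library. In splenic CD45+ against splenic CD45- libraries the log2 difference of 1.39 (SE 0.54) did not pass the test, at an adjusted p of 0.0611 by limma. Without splenic CD45+ replicate 3 it was 2.08 and called higher, and the adjusted p by limma ran from 0.00393 to 0.532 over 15 alternatives, of which 4 called it.

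Erfe, Cish and Socs2 stood in 1 order within the splenic CD45+ group, with replicate 1 highest and replicate 3 lowest. Stat5a, Stat5b and Pim1 stood in this order too, while Jak2, Socs3 and Bcl2l1 did not. The order was picked after the values had been seen, and the share of all genes in it was not computed. It thus cannot be read as particular to these genes. Epor did not follow this order, at 64.9, 107 and 73.7 FPKM in replicates 1 to 3, nor did the erythroid marker sum, at 5180, 5320 and 5160 FPKM. The granulocyte marker sum was 23200, 32400 and 77800 FPKM in the same libraries, and the monocyte and macrophage sum was 4110, 1460 and 4120 FPKM. The ratio of Erfe to Epor was 1.12, 0.524 and 0.197 in splenic CD45+ replicates 1 to 3, against 0.0716, 0.0718 and 0.0782 in splenic CD45- replicates. Every splenic CD45+ library was above every splenic CD45- library in this ratio, including replicate 3, whose Erfe level itself was not.

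The splenic groups differed in how much erythroid RNA they held, so each gene was also set against the erythroid reference level of its own library, the mean log2(FPKM + 1) of the 10 erythroid markers. This reference was 0.36 ± 0.36 (SD, n = 4) in tumor CD45+, 8.24 ± 0.12 (n = 3) in splenic CD45+ and 8.95 ± 0.11 (n = 3) in splenic CD45- libraries, a splenic difference of -0.71 on the log2 scale. It was too low in the tumor to serve there. Relative to it, splenic CD45+ minus splenic CD45- libraries differed by 2.77 for Cish, 2.24 for Socs2, 3.00 for Socs3, 2.10 for Erfe and 1.98 for both Stat5a and Stat5b. Jak2 and Pim1 differed by 0.94 and 0.90, and Epor by -0.56. For these 9 genes the splenic groups did not overlap. The share of all genes without overlap was not computed, so this cannot be read as particular to these genes. The reference fell while the median log2 change of all genes tested was 0.67, so a gene at that median also lies above 0 here. Without the reference Jak2 and Pim1 overlapped between the splenic groups and were not called, at 0.23 and 0.19. Bcl2l1 differed by -0.46 with overlap, and by 0.09 without splenic CD45+ replicate 2. Against single markers the gap was smaller, since Tspo2 and Slc4a1, the markers with the largest drops of the 10, fell by 1.19 and 1.14 across the splenic gate, against 1.28 for Epor. These values describe the libraries and were not tested. The markers of granulocytes (12 of 12 called higher), B cells (7 of 7) and T and NK cells (8 of 8) moved with the splenic CD45+ group, where 50.5% of all genes tested were called higher. Of these markers 2, 3 and 5 passed the filter through 1 group alone and could be called in 1 direction only. Their part in the values of the 10 genes was not tested.

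**Figure D5:**
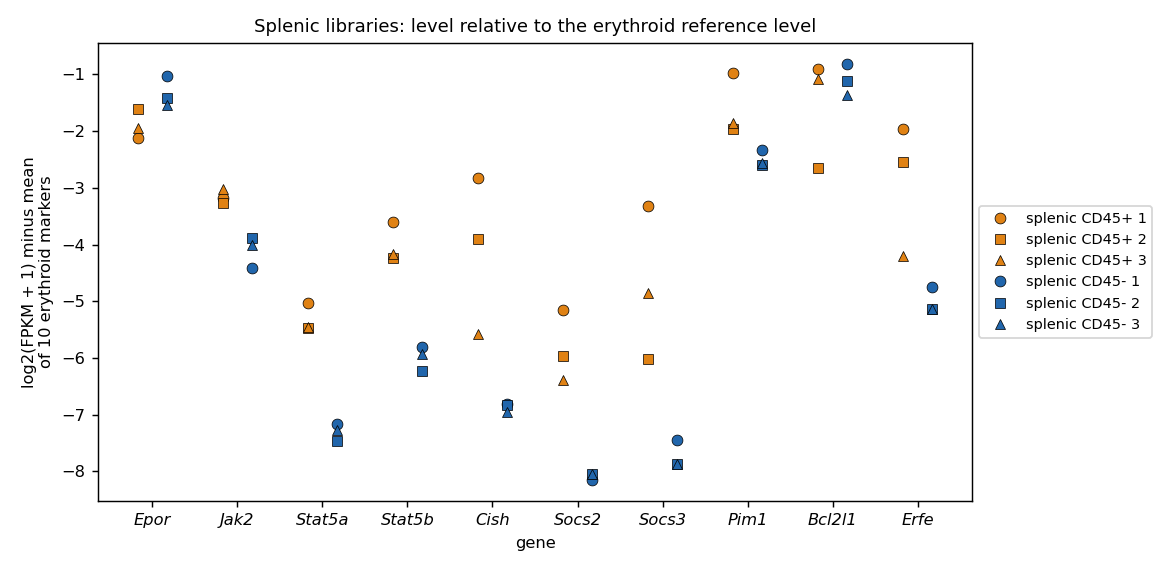
Level of each gene in the 6 splenic libraries relative to the mean of 10 erythroid markers, in log2 units, with splenic CD45+ libraries left and splenic CD45- libraries right of each gene and the replicate number given by the symbol. Epor lies lower, and Cish, Socs2, Socs3, Stat5a, Stat5b and Erfe lie higher, in all 3 splenic CD45+ libraries, and Bcl2l1 overlaps.

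The other genes of the pathway gave the setting of these changes. Of 5 receptor partners and erythroid cofactors tested in tumor CD45+ against splenic CD45+ libraries, 1 rose and 3 fell, with a median log2 change of -1.37 against 0.20 for all genes. The 3 that fell were below 1 FPKM in every tumor library and could be called lower only. Gata1, the erythroid transcription factor, fell by 7.05 to 0.0725 ± 0.132 FPKM in the tumor, against 149 ± 64.3 in splenic CD45+ libraries (adjusted p = 6.53e-07 by limma). Tfr2, a transferrin receptor that associates with EPOR, fell by 3.92, and Kit, the receptor of stem cell factor, by 1.37. Csf2rb2, a mouse interleukin-3 receptor subunit, rose by 1.37. Csf2rb, the shared subunit of the receptors of interleukin-3, interleukin-5 and GM-CSF, was not called, at 0.42 (adjusted p = 0.339 by limma), and its sign was -0.05 without splenic CD45+ replicate 2. Csf2rb and Csf2rb2 are near copies, so the counting may have split fragments between them.

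Of 9 other JAK and STAT genes and kinases tested there, 1 rose (Stat6, by 1.05) and 2 fell (Jak1, by 0.77, and Stat4, by 1.71). None of these 3 calls held throughout: Stat6 was not called with haemoglobin left out (0.59), Jak1 was not called after scaling to a common sum (-0.51), and Stat4 was not called without splenic CD45+ replicate 3 (-1.37). Of 17 adaptors of the RAS and PI3K branches 4 rose, among them the kinases Mapk3 by 1.25 and Akt1 by 0.83 and the adaptor Gab2 by 1.42, and 4 fell, among them the PI3K regulatory subunit Pik3r1 by 1.84 and the adaptors Crkl by 0.82 and Shc1 by 0.67. Their median log2 change was -0.11. Akt1 was not called with haemoglobin left out (0.37), and Crkl and Shc1 were not called after scaling to a common sum (-0.58 and -0.41). Of 13 genes listed as negative regulators 4 rose and 4 fell, where 37.7% of all genes tested were called higher and 26.0% lower. The inhibitors Socs1 and Socs6 rose by 1.74 and 0.93 and Pias3 by 0.60, while Socs4 fell by 1.37, Pias1 by 0.64 and Btrc, a ubiquitin ligase subunit that marks the receptor for degradation, by 2.24. Pias3 was not called with haemoglobin left out, at 0.19, nor without tumor CD45+ replicate 2 or 3, at 0.56 and 0.59. Pias1 was not called after scaling to a common sum (-0.40). Sh2b3, the JAK2 inhibitor LNK, was not called, at 0.36 (adjusted p = 0.351 by limma), and at -0.02 without splenic CD45+ replicate 2.

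Of 14 other known targets in the same comparison 5 rose and 4 fell, where 37.7% of all genes tested were called higher and 26.0% lower. Osm, the gene of the cytokine oncostatin M and a known STAT5 target, rose by 2.11 to 78.5 ± 20.5 FPKM in tumor CD45+ libraries, against 17.6 ± 5.99 in splenic CD45+ libraries (adjusted p = 0.000686 by limma). Pim3, a relative of Pim1, rose by 1.16 and Pim2 fell by 2.03, while Pim1 was not called. Mcl1 rose by 1.06 and Spry1, an inhibitor of RAS signals, by 0.97. Of the 14, 2 passed the filter through 1 group alone. Spry1, below 1 FPKM in every splenic CD45+ library, could be called higher only. With haemoglobin left out Pim3 (0.74) and Mcl1 (0.60) were not called. Tfrc, the transferrin receptor of dividing red cell precursors, fell by 5.30 to 16.6 ± 3.29 FPKM in the tumor, against 707 ± 223 in splenic CD45+ libraries, and Ccnd3, a cyclin that sets red cell divisions, fell by 2.76. Of 9 tested receptors that also signal through JAK2 or STAT5, 2 rose and 1 fell. Ghr, the growth hormone receptor, was at 25.6 ± 5.37 FPKM in tumor CD45+ and 0.0300 ± 0.0265 in splenic CD45+ libraries. It passed the filter through the tumor alone and could be called higher only. Il3ra rose by 1.66, while Csf3r, the receptor of granulocyte colony-stimulating factor, fell by 1.86. Without splenic CD45+ replicate 2, 6 of the 17 adaptors rose and 8 fell, against 4 and 4 with it. Of the 14 other targets 5 rose and 7 fell, against 5 and 4 with it. Over all genes tested, 2606 to 3410 were called lower with any 1 library left out, against 2986 with all libraries.

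Across the splenic gate most calls in these lists were upward, as they were for all genes, of which 50.5% were called higher and 5.02% lower. Of 5 receptor partners and erythroid cofactors 3 rose and 1 fell in splenic CD45+ against splenic CD45- libraries, with a median log2 change of 1.20 against 0.67 for all genes. Csf2rb rose by 3.70 to 17.5 ± 9.95 FPKM in splenic CD45+ libraries, against 0.267 ± 0.0115 in splenic CD45- libraries (n = 3 each, adjusted p = 0.000970 by limma). Csf2rb2 rose by 2.10, and Kit rose by 1.20 to 2.11 ± 0.592 FPKM, against 0.340 ± 0.0436. These 3 genes were below 1 FPKM in every splenic CD45- library and could be called higher only. Gata1 fell by 0.83 (adjusted p = 0.0433 by limma), a call that 7 alternatives ended, among them the loss of splenic CD45+ replicate 1 or 3 and of any 1 splenic CD45- replicate. Tfr2 differed by -0.78 (adjusted p = 0.181 by limma), and was called lower, at -1.33, without splenic CD45+ replicate 2, and at -1.51 and -1.80 after trimmed-mean and median-ratio scaling.

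Of the 9 other JAK and STAT genes and kinases 7 rose and none fell, with a median of 1.88. They included Lyn, a SRC family kinase that associates with EPOR, by 4.05, Stat3 by 3.06 and the kinase gene Tyk2 by 1.88. Of 17 adaptors 11 rose and none fell, among them the phospholipase gene Plcg2 by 3.89, Vav1 by 3.72 and Cbl by 2.10, with a median of 0.76. Of 12 genes listed as negative regulators 7 rose and 1 fell. Ptpn6, the phosphatase SHP-1 that ends EPOR signals, rose by 3.35, Sh2b3 by 2.28 and Socs6 by 1.39, and Btrc fell by 0.84, which was not called without splenic CD45- replicate 2, on the highest model per gene or after scaling to a common sum. Socs1 did not pass the filter, at 2.82 ± 1.80 FPKM in splenic CD45+ and 0.540 ± 0.0755 in splenic CD45- libraries. The filter was passed through 1 group alone by 2 JAK and STAT genes, 4 adaptors and 2 negative regulators. Plcg2, Vav1 and Socs6 were among them, and all of these could be called in 1 direction only.

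Of 13 other targets 9 rose and none fell, with a median of 1.87. Myc rose by 3.10, Osm by 2.83, Id1 by 1.87 and Pim3 by 1.65. Of the 13, 4 passed the filter through 1 group alone, Id1 among them, and could be called in 1 direction only. Pim2 differed by 0.86 with an adjusted p of 0.0622 by limma, by 1.25 and called higher without splenic CD45+ replicate 2, and by -0.08 after median-ratio scaling. All 8 tested receptors that also signal through JAK2 or STAT5 rose, with a median of 3.16, among them Csf3r by 4.52, Ifngr1 of the interferon-γ receptor by 3.72 and Il7r of the interleukin-7 receptor by 2.96. Of these 8, 5 passed the filter through 1 group alone and could be called in 1 direction only. Epor was lower while these 8 cytokine receptors were higher. All 12 granulocyte markers rose with them, 2 of which passed the filter through 1 group alone, and the part of those cells was not tested.

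In tumor CD45+ against splenic CD45- libraries 8 of 9 JAK and STAT genes rose, with a median log2 change of 2.12 against 1.06 for all genes, and Lyn, Stat3 and Jak3 had the lowest adjusted p-values, at log2 changes of 5.27, 4.08 and 3.79. All 9 receptors tested rose, where 67.5% of all genes were called higher, and 6 of the 9 passed the filter through the tumor alone and could be called higher only. The 9 included Il2rg at 5.26, Ifngr1 at 4.10 and Il3ra at 3.24. Il2rg and Ifngr1 were above 1 FPKM in every splenic CD45- library too, while Il3ra was below it there. Of the 4 receptor partners tested, Csf2rb and Csf2rb2 rose by 4.12 and 3.47, and Gata1 and Tfr2 fell by 7.88 and 4.70. Each of these 4 passed the filter through 1 group alone, which fixed the direction a call could take. Of 17 adaptors 11 rose and 3 fell. The RAS branch kinase Map2k1 rose by 3.30, Vav1 by 4.77 and Plcg2 by 3.82, while Pik3r1 fell by 1.64, Shc1 by 0.98 and Crkl by 0.41, with the sign of Crkl turned to 0.19 after scaling to a common sum. Of 13 genes listed as negative regulators 8 rose, among them Ptpn6 by 3.70, Socs1 by 2.90, Inpp5d by 2.76 and Sh2b3 by 2.63. Another 4 fell, among them Btrc by 3.08, Socs4 by 0.86 and Ptpn11 by 0.60. Whether each acts as an inhibitor in these cells was not tested. After scaling to a common sum Socs4 was not called, at -0.30, and the sign of Ptpn11 turned to 0.02. Of 13 other targets 9 rose, among them Osm by 4.94, Id1 by 3.05, Pim3 by 2.81 and Mcl1 by 2.22, while Tfrc fell by 4.92, Ccnd3 fell by 3.63 and Pim2 fell by 1.17. Kit did not pass the filter in this comparison. A further 2 JAK and STAT genes, 4 adaptors, 3 negative regulators and 4 other targets passed the filter through 1 group alone. These too could be called in 1 direction only.

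The genes whose levels followed a member most closely over the 10 libraries, by Pearson correlation of log2(FPKM + 1), were named for 4 members. For Epor they were Fn3k (r = 0.9996), Ubac1 (0.9996) and Dhrs11 (0.9994), and for Erfe they were Taok2 (0.9922), Zfp592 (0.9907) and Eif4ebp2 (0.9897). For Socs2 they were Zfp809 (0.9895), Agfg1 (0.9860) and Smcr8 (0.9810), and for Cish they were Aak1 (0.9833), Arhgdig (0.9805) and Ppm1e (0.9766). These correlations describe libraries that fall into 3 groups and share scale and depth, and they carry no test.

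Some members overlap other genes on the opposite strand, and no label says whether the counting used strand. Exons of Ilkap cover 12.7% of the exon bases of Erfe, Gm26885 covers 14.5% of those of Pim1, and Gm17041 covers 7.46% of those of Cish. Fragments from these stretches cannot be told apart by gene.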

How the data were processed

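Messenger RNA was measured in 10 libraries of sorted cells. Per the labels' protocols, BGI extracted the RNA with TRIZOL and prepared the libraries. The submitters' processing notes give GRCm38.p6 as the build, and no aligner or quantifier is named in the labels or headers. From the authors come 10 tables, each with a value for 61685 RefSeq transcript models and no stated unit. The deposited values were taken to be FPKM, since their sums differed (801072 to 1367791) while sums weighted by transcript length, over the 23223 models of known length, lay between 953307 and 1137767. Fold changes rest on FPKM and not on read counts. Depth came from the smallest steps between low values, and a transcript of 1 kilobase at 1 FPKM rests on 16.9 to 20.8 fragments.

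Models were summed per gene symbol (60167 models, 17603 genes). The 1518 models without a symbol held 0.423% to 1.06% of the FPKM and were left out. Each comparison was fitted to its 2 groups alone with limma 3.58.1 in R 4.3.3 (intensity trend) on log2(FPKM + 1), over genes that reached 1 FPKM in 3 or more of the libraries compared, and called at a Benjamini-Hochberg adjusted p below 0.05 over all genes tested. Changes given as "by" a number are log2 changes, which understate the change of low genes. The design written first allowed for counts, and gave limma for normalized values, which applied. The fit was tested on simulated data. Trimmed-mean factors were computed in R on FPKM. Alternatives were a pseudocount of 0.1, no filter, 4 other scalings, 1 fit over all libraries, the highest model per gene, a replicate block, and each library left out. Tables and figures used Python 3.11.15, pandas 2.3.3, numpy 2.4.6, scipy 1.17.1 and matplotlib 3.10.9.

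The members and gene lists were chosen with earlier results of these data known. Named genes were all 10 members, and up to 3 called genes with the lowest adjusted p per pathway list, comparison and direction. They also took in the partners Csf2rb, Kit, Tfr2, Socs1, Sh2b3, Pim2, Pim3 and Osm, and Epo, which had no value. For 4 members the 3 genes most like them were named too. Shares and ratios between genes, and the order of replicates within a group, were chosen after the values had been seen. Gene coordinates and promoter sequences are from RefSeq tables, and exon overlaps from GENCODE, all of GRCm38.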

Additional observations from a re-analysis of the deposited data

Results flagged for a closer look

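In the 10 members and in the pathway genes that the naming rule picked, the tumor CD45+ library farthest from the other 3 was compared with the range of all 4. Of 57 genes checked, 12 had a gap to the nearest library above the 95% critical value of Dixon's test for 4 values. Chance gives about 1 in 20 for a single gene. The 57 genes share the same 4 libraries, and the rate over all genes was not computed. An excess particular to these genes thus cannot be read from the count. In all 12 the library was tumor CD45+ replicate 1, which also stood apart in haemoglobin share, granulocyte markers and T and NK cell markers. The part of these differences in the gaps was not tested.

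Among the members, Epor had a gap of 0.848 of the range, with 0.55 FPKM in replicate 1 against 0.22 to 0.27 FPKM in the other 3. Pim1 had a gap of 0.843, with 44.9 FPKM against 86.9 to 94.7 FPKM. For Epor replicate 1 was the highest, and for Pim1 the lowest.

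Of the other genes Gata1 was highest in replicate 1, at 0.27 FPKM against 0.00 to 0.02, with a gap of 0.926. The remaining 9 were lowest there. Tfrc had a gap of 0.976 (11.7 FPKM against 18.2 to 18.4), Ptpn11 0.940 (12.7 against 16.4 to 16.6) and Il7r 0.880 (8.32 against 12.7 to 13.3). Plcg2 had 0.869 (18.5 against 22.4 to 23.0), Socs4 0.864 (3.38 against 4.52 to 4.70) and Mcl1 0.845 (279 against 315 to 322). Jak1 had 0.844 (38.3 against 46.1 to 47.5), Socs1 0.843 (6.96 against 11.5 to 12.4) and Il2rg 0.833 (84.3 against 120 to 127).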

How the results depend on the processing

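The drop of Epor in all 3 comparisons, of Erfe and Jak2 in both tumor comparisons and of Cish and Socs2 in tumor against splenic CD45+ libraries, and the rise of Socs3 in all 3, kept their direction and call under every alternative run. Log2 changes ran from -7.65 to -5.70 for Epor and from 3.45 to 4.70 for Socs3 in tumor against splenic CD45+ libraries. The causes of the changes that follow were not tested, beyond the smaller number of samples where a library was left out. Over all members and comparisons 419 results were stable, 22 lost a call, 11 gained one and 18 changed sign. Across the splenic gate the signs that changed were those of Jak2 (-0.50 after trimmed-mean scaling, -0.80 after median-ratio scaling, -0.02 with haemoglobin left out), Pim1 (-0.56, -0.86 and -0.07 in the same settings, and -0.08 to 0.35 with a library left out) and Pim2 (-0.08 after median-ratio scaling). In tumor against splenic CD45+ libraries they were those of Bcl2l1 (0.18 after scaling to a common sum, 0.01 on the highest model, -0.56 to 0.21 with a library left out), Csf2rb (-0.03 with haemoglobin left out, -0.05 to 0.81 with a library left out) and Sh2b3 (-0.09, and -0.02 to 0.71). In tumor CD45+ against splenic CD45- libraries they were those of Stat5b (-0.30, -0.43 and -0.06 after trimmed-mean and median-ratio scaling and without haemoglobin), Socs2 (-0.10 and -0.19), Pim1 (0.46 after scaling to a common sum, -0.29 to 0.07 with a library left out), Crkl (0.19) and Ptpn11 (0.02), both after scaling to a common sum. Some of these turned signs were also calls in the new direction. Jak2 and Pim1 were called lower across the splenic gate after median-ratio scaling. Stat5b was called lower in tumor CD45+ against splenic CD45- libraries after trimmed-mean and median-ratio scaling. Relative to the erythroid reference, Bcl2l1 ran from -0.78 to 0.09 with a library left out, and Stat5a and Socs2 moved to 2.29 and 2.94 with a pseudocount of 0.1.

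Counts of calls moved by more than 1.5 times in these cases. Across the splenic gate, 488 genes fell as deposited, 2100 after trimmed-mean scaling, 3284 after median-ratio scaling, 121 after scaling to a common sum and 883 with haemoglobin left out, and 4912 rose as deposited, 2924 after trimmed-mean and 2407 after median-ratio scaling. Leaving out 1 library gave 206 to 1422 genes that fell, 1422 of them without splenic CD45+ replicate 2. Members that rose were 2 and that fell were 4 after median-ratio scaling, and 1 fell with no filter, after scaling to a common sum and on the highest model per gene, and 1 or 2 with a library left out. After scaling to a common sum 1971 genes fell in tumor against splenic CD45+ libraries (2986 as deposited). In tumor CD45+ against splenic CD45- libraries 4371 fell after trimmed-mean, 4638 after median-ratio and 1622 after common-sum scaling (2522 as deposited), and members that rose were 2, 1 and, with haemoglobin left out, 2 (4 as deposited).

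The labels do not say whether the replicate numbers pair the libraries. Correlations of same-numbered deviations from the group mean were 0.11, 0.07 and -0.01 across the splenic gate. They were -0.18, -0.10 and -0.04 in tumor against splenic CD45+ and 0.24, 0.09 and -0.02 in tumor CD45+ against splenic CD45- libraries. With so few libraries these values cannot settle whether a pairing exists. A fit that blocked on the replicate number, without tumor replicate 4, called 4443 genes higher and 408 lower across the splenic gate, 3432 and 2246 in tumor against splenic CD45+, and 7558 and 2574 in tumor CD45+ against splenic CD45- libraries. Erfe was then called higher across the splenic gate (adjusted p = 0.0224 by limma) and Stat5b was not called in tumor against splenic CD45+ libraries (-0.69, adjusted p = 0.104 by limma), where 5 members fell. Jak1 (-0.80), Crkl (-0.81), Shc1 (-0.64), Pias1 (-0.66) and Pias3 (0.63) were not called with the block there either.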

Other observations

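Markers of further cell types, which enter no comparison of the 10 genes, were read in the same libraries. The 6 endothelial and stromal markers summed to 104 to 146 FPKM in tumor CD45+ libraries, 0.15 to 0.82 in splenic CD45+ and 0.04 to 1.53 in splenic CD45- libraries, and all 6 were below 1 FPKM in every splenic library. The 7 epithelial markers summed to 312 to 406 FPKM in tumor CD45+, 0.39 to 2.84 in splenic CD45+ and 0.03 to 0.84 in splenic CD45- libraries, with 3 of 7 at 1 FPKM or more in every tumor library. The 6 megakaryocyte markers summed to 600 to 873 FPKM in tumor CD45+ libraries, 20.1 to 29.5 in splenic CD45+ and 34.4 to 37.3 in splenic CD45- libraries. The tumor sum was mostly Pf4, at 859, 593, 607 and 609 FPKM in replicates 1 to 4. In tumor against splenic CD45+ libraries Pf4 and Ppbp rose, while Gp9 fell by 3.65, Itgb3 fell by 1.45 and Itga2b fell by 1.43, by limma.

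The 8 T and NK cell markers summed to 5.44 FPKM in tumor CD45+ replicate 1 and 40.7 to 41.9 in replicates 2 to 4, 301, 44.0 and 246 in splenic CD45+ replicates 1 to 3, and 4.78 to 6.52 in splenic CD45- libraries. The 6 mast cell and basophil markers summed to 3.03 to 3.42 FPKM in tumor CD45+ libraries, 35.4 to 154 in splenic CD45+ and 0.82 to 1.88 in splenic CD45- libraries. The 7 dendritic cell markers summed to 1.41 to 3.18, 7.50 to 82.0 and 0.83 to 1.04 FPKM in the same groups. B cell markers summed to 5.47 to 8.91 FPKM in tumor CD45+ and 24.5 to 30.7 in splenic CD45- libraries.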
